A study of Mus musculus with 6 samples.

Results

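The genes described here are 43 genes of the cells that form and fill brain blood vessels: endothelial cells, pericytes, smooth muscle cells, fibroblasts of the vessel wall and red blood cells. They were taken by name from the 32531 genes counted in each library, and all 43 were present. RNA was sequenced from the thalamus of adult, untreated control mice that carry Cbln1-EGFP/Rpl10a (line NIDA030), in 3 immunopurified (IP) libraries and 3 Input libraries. Every mouse of both groups carried the transgene, in which the ribosomal protein Rpl10a is fused to green fluorescent protein. The line is named for Cbln1, a secreted organiser of synapses. In translating ribosome affinity purification (TRAP), antibodies against the fluorescent tag pull tagged polysomes out of a homogenate of the tissue. IP is the RNA recovered with them and Input is the library the labels call input, although both are labelled as ribosome-bound RNA. The labels do not say which cells of these mice made the tag, nor whether replicates came from separate animals or pools, so the p-values below speak of the spread between libraries, which may be technical. The labels name the thalamus, whereas the deposited tables carry the name of the parafascicular nucleus, which lies within it.

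Brain capillaries are lined by endothelial cells joined by tight and adherens junctions. These cells carry nutrient carriers and efflux pumps that together make the blood-brain barrier. Pericytes lie on the capillaries inside a shared basement membrane and are held there through signalling from endothelial PDGF to the pericyte receptor Pdgfrb, while smooth muscle cells wrap the arterioles and fibroblasts sit in the sheath of larger vessels. None of these cells is a neuron, and red blood cells are present in brain tissue wherever blood is left in the vessels.

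Of the 43 genes, 27 were lower in IP, 1 was higher and 15 did not pass the test (edgeR's quasi-likelihood test, Benjamini-Hochberg adjusted p under 0.05 over 16898 genes tested). That is 62.8% of the genes called lower, beside 24.3% of all genes tested, and 1 called higher, beside a background of 23.3%. Among genes with an Input level like theirs, 28.8% were called lower and 8.26% higher. Every IP library lay below every Input library for 34 of the 43 genes, beside 33.7% of all genes tested, and above every Input library for 1, beside 27.9%. The median log2 fold change of IP over Input was −2.68 for the 43 genes, also with genes at 0 counts set to their bound, and −0.07 for all genes tested. All 43 passed the filter on low counts through their Input libraries and 14 would also have passed through IP alone, so these counts describe the genes and are no independent support for a direction. Leaving out 1 library at a time gave 18 to 31 genes called lower. The count was 18 without Input replicate 1 and also 18 without Input replicate 2, and 31 without IP replicate 2.

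The IP level as a percentage of the Input level ran from 0 to 197, with a median of 15.5. It was 0 for 3 genes, above 0 to 10% for 11, above 10 to 20% for 13, above 20 to 50% for 8 and above 50% for 8. The summed level of the 43 genes was 65.2, 52.4 and 63.6 CPM (read counts relative to library size, scaled by the trimmed mean of M-values) in IP replicates 1 to 3, against 165, 173 and 153 CPM in Input. This came to 36.9% of the Input sum, a higher share than the median gene kept. A few genes carried much of the IP sum: Slc2a1, Ptprb, Pdgfrb, Slc16a1, Abcg2, Egfl7 and Mfsd2a together made up 70.5 to 75.9% of it in IP, against 37.4 to 43.1% in Input. Without Slc2a1, Slc16a1, Abcg2, Ptprb, Pdgfrb and Egfl7, 6 genes picked after their values were seen, the other 37 genes summed to 17.1% of their Input level. These are bulk libraries, and a level in IP is a share of the RNA pulled down, not a count of cells. Which cells gave that RNA, and how much RNA each cell held, cannot be told from them.

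**Figure D1:**
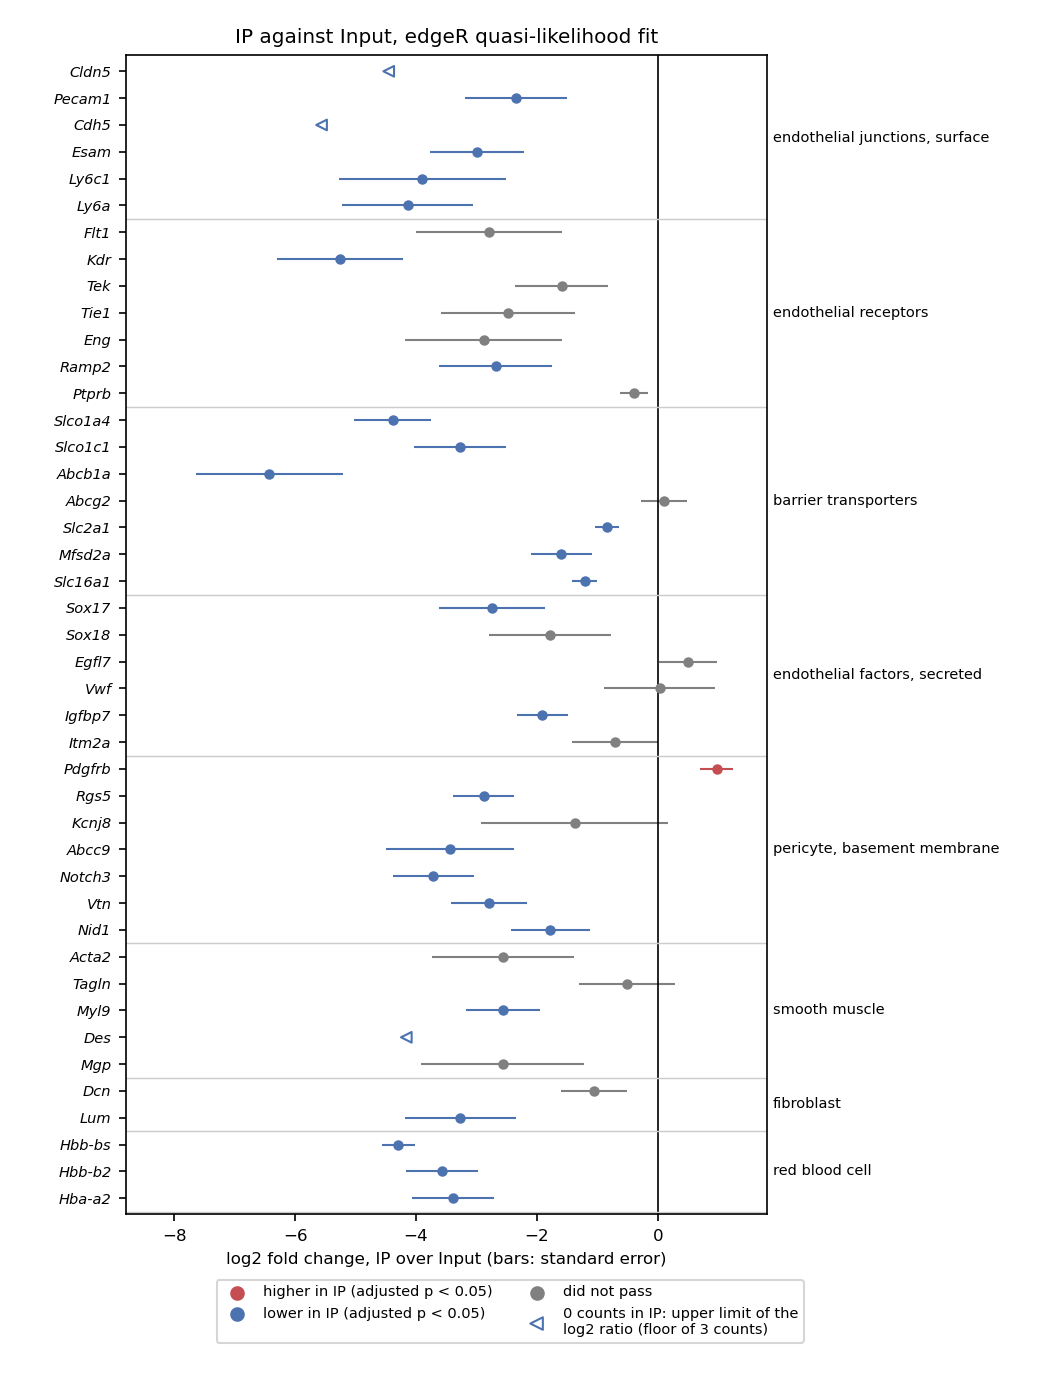
Log2 fold change of IP over Input for each of the 43 genes, grouped by role, with bars for the standard error; negative values are lower in IP. Blue and red points passed the test and grey points did not, and Pdgfrb is the 1 called gene to the right of 0. Open triangles for Cldn5, Cdh5 and Des, at 0 counts in every IP library, mark the upper limit that a floor of 3 counts gives.

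Assigned counts ran from 45256700 to 57385828 in IP and from 23929070 to 47741219 in Input, so that 1 count was worth 0.0200 to 0.0235 CPM in IP and 0.0191 to 0.0392 CPM in Input. The 43 genes held 2405 to 3259 counts in an IP library and 4208 to 8971 in an Input library. Cbln1 was at 1429 ± 67.8 CPM in IP and 79.8 ± 9.64 CPM in Input (n = 3 each, SD; log2 fold change 4.16, SE of 0.11, adjusted p = 9.66e-08). All 6 neuron markers were higher in IP, with a summed level at 219.5% of Input. Snap25 made up most of that sum, at 19373 of 23362 CPM in IP. Marker sums of other cell types were lower in IP, at 19.8% of Input for astrocytes (7 of 7 called lower), 8.19% for oligodendrocytes (6 of 6), 8.30% for their precursors (4 of 4), 11.3% for microglia (5 of 6) and 19.9% for ependyma (3 of 4). The astrocyte sum was mostly Glul, at 202 of 220 CPM in IP and 920 of 1113 CPM in Input. Glul stood at 21.9% of Input and the other astrocyte markers at 5.54 to 12.4% each. Choroid plexus markers, of which 1 of 6 was called lower, differed between replicate numbers, with sums of 1.86, 47.8 and 39.7 CPM in IP replicates 1 to 3 and 9.52, 511 and 572 CPM in Input. The part of these other cell types in the values below was not tested. No defining marker list of the vessel cells was absent from Input, while Cldn5 and Cdh5 were at 0 in every IP library.

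The 6 genes of endothelial junctions and surface all fell in IP, and together they stood at 8.54% of Input. Their summed level was 0.920, 0.327 and 0.847 CPM in IP replicates 1 to 3, against 7.56, 9.47 and 7.50 CPM in Input. No IP library overlapped an Input library for any of the 6. None of them would have passed the filter on low counts through IP alone, so this is no independent support for a direction.

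Cldn5, the main claudin of brain endothelial tight junctions, had 0 counts in all 3 IP libraries, against 0.274, 0.212 and 0.938 CPM in Input (adjusted p = 0.00701). With a floor of 3 counts over the IP group it was at least 21.9-fold lower than the Input mean. That mean rests on 7, 11 and 49 counts in Input replicates 1 to 3, and the bound leaves out their spread. Cdh5, the cadherin of endothelial adherens junctions, likewise had 0 counts in every IP library, against 1.06, 1.502 and 0.517 CPM in Input, and was at least 47.3-fold lower (adjusted p = 0.00232). Both genes were therefore detected only in Input at this depth. Cldn5 lies on chromosome 16 (18776847 to 18778262, mm10) and Cdh5 on chromosome 8 (104101625 to 104144511).

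Esam, an adhesion molecule of endothelial junctions, had 0.380, 0.0872 and 0.282 CPM in IP, against 2.82, 1.33 and 1.89 CPM in Input (log2 fold change −2.99, SE of 0.78, adjusted p = 0.0110). Pecam1, an adhesion molecule at contacts between endothelial cells, had 0.3001, 0.0654 and 0.376 CPM in IP, against 1.18, 1.19 and 1.44 CPM in Input (log2 fold change −2.35, SE of 0.84, adjusted p = 0.0443). These genes were low but present in all 3 IP libraries. Ly6c1 had 0.240, 0 and 0 CPM in IP, against 0.783, 1.75 and 1.22 CPM in Input (log2 fold change −3.89, SE of 1.37, adjusted p = 0.0417). Ly6a, like Ly6c1 a lipid-anchored surface protein of mouse endothelium, had 0, 0.174 and 0.188 CPM in IP, against 1.45, 3.49 and 1.49 CPM in Input (log2 fold change −4.14, SE of 1.08, adjusted p = 0.0115). Reads of Ly6c1 are uncertain, since 32.8% of its 50-base windows also occur in a gene such as its near copy Ly6c2, and 19.0% of those of Ly6a occur elsewhere, mainly in Ly6c1. Of this group, Cldn5 and Cdh5 kept their call under every setting that tested them, but the filter with a minimum count of 50 removed both. Pecam1 lost its call without Input replicate 1, 2 or 3 (adjusted p 0.117, 0.129 and 0.158) and with the replicate number as a block (log2 fold change −2.59, adjusted p = 0.0925). Ly6c1 lost it without IP replicate 2 or 3 (0.0508 and 0.0560) and without Input replicate 1, 2 or 3 (0.0901, 0.138 and 0.107), Esam without Input replicate 1 (0.0688) and Ly6a without Input replicate 2 (0.0800).

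Of the 7 endothelial receptors, Kdr and Ramp2 fell in IP and the other 5 did not pass the test. Every IP library lay below every Input library for 6 of the 7, beside 33.7% of all genes tested. Only 1 of the 7 would have passed the filter on low counts through IP alone, so this count is no independent support for a direction. The group stood at 45.2% of Input, or at 14.7% without Ptprb, which was left out after its value was seen.

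Kdr, the main signalling receptor for VEGF, had 0.0600, 0 and 0.0706 CPM in IP, against 1.10, 2.21 and 1.97 CPM in Input (log2 fold change −5.26, SE of 1.04, adjusted p = 0.00291). Flt1, the other VEGF receptor of endothelium, had 1.24, 0.109 and 0 CPM in IP, against 3.41, 4.02 and 2.09 CPM in Input (log2 fold change −2.80, SE of 1.20, adjusted p = 0.0839). Flt1 was uneven within IP: nearly all of its IP level was in replicate 1, and without that library its log2 fold change was −5.75 (adjusted p = 0.00115). With the replicate block Flt1 passed the test (log2 fold change −4.30, adjusted p = 0.0138). Tek, the angiopoietin receptor, had 0.340, 0.174 and 0.682 CPM in IP, against 1.10, 1.29 and 1.22 CPM in Input (log2 fold change −1.59, SE of 0.77, adjusted p = 0.118). Its relative Tie1 was the lowest of the receptors in Input, at 0.0600, 0.131 and 0 CPM in IP and 0.509, 0.270 and 0.344 CPM in Input (adjusted p = 0.0940). Each passed the test once 1 IP library was left out, Tek without replicate 3 (log2 fold change −2.20, adjusted p = 0.0333) and Tie1 without replicate 2 (−3.44, adjusted p = 0.0485).

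Eng, a co-receptor for BMP and TGF-beta ligands, had 0, 0.436 and 0.0235 CPM in IP, against 1.14, 0.963 and 1.34 CPM in Input (log2 fold change −2.88, SE of 1.30, adjusted p = 0.0974). Its IP counts came mostly from replicate 2, without which IP was close to 0 counts and the fitted log2 fold change was −6.37 (adjusted p = 0.00278). Ramp2, which pairs with the receptor of adrenomedullin, had 0.340, 0.0436 and 0.682 CPM in IP, against 3.96, 1.56 and 1.38 CPM in Input (log2 fold change −2.68, SE of 0.94, adjusted p = 0.0401). Its call was lost without IP replicate 1 (adjusted p = 0.0543) and without Input replicate 1, 2 or 3 (0.203, 0.0755 and 0.0660). Ramp2 overlaps Vps25 on the same strand over 33.4% of its exon bases, and Vps25 was higher in IP (75.7 ± 10.3 CPM in IP and 44.8 ± 2.25 CPM in Input; log2 fold change 0.76, SE of 0.12, adjusted p = 9.73e-04). The part of that overlap in the counts of Ramp2 was not tested.

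Ptprb, the endothelial phosphatase that acts on Tek, stood apart in level. It had 6.12, 9.50 and 6.78 CPM in IP, against 8.77, 10.6 and 10.03 CPM in Input, and the highest IP library exceeded the lowest Input library. The log2 fold change was −0.40 (SE 0.24, adjusted p = 0.195), and −0.60 without IP replicate 2 (adjusted p = 0.0443). Ptprb had 18, 54.5 and 9.93 counts for each count of its substrate Tek in IP, against 8, 8.25 and 8.19 in Input. That ratio was nearly constant in Input and was higher in every IP library, where Tek had only 17, 8 and 29 counts.

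**Figure D2:**
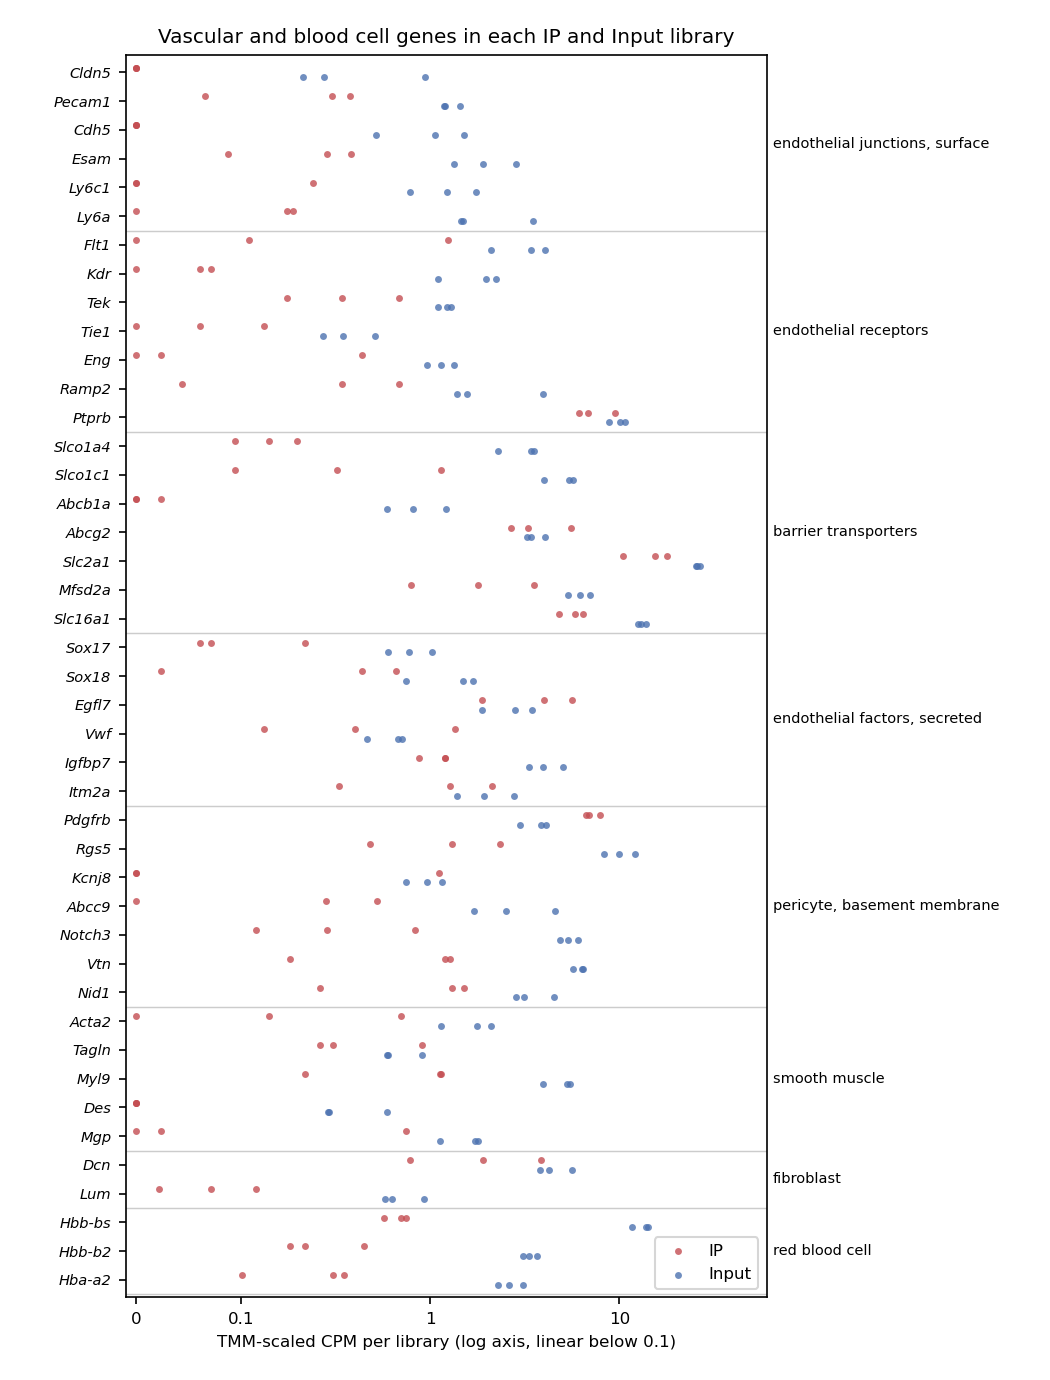
Level of each of the 43 genes in each library, in CPM on a log axis that is linear near 0, with the 3 IP libraries as red points above the 3 Input libraries as blue points in each row. Cldn5, Cdh5 and Des are at 0 in all IP libraries, while Slc2a1 is the gene with the most CPM in every library.

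Of the 7 transporters of the blood-brain barrier, 6 fell in IP, but by very different amounts, and Abcg2 did not pass the test. Their summed level was 33.1, 20.01 and 27.1 CPM in IP, against 56.2, 58.1 and 59.0 CPM in Input, or 46.3% of Input. Without Slc2a1, Slc16a1 and Abcg2, left out after their values were seen, it was 17.9%.

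Slco1a4, an organic anion carrier of brain endothelium, had 0.140, 0.196 and 0.0941 CPM in IP, against 3.53, 3.39 and 2.28 CPM in Input (log2 fold change −4.39, SE of 0.64, adjusted p = 5.25e-04). Slco1c1, its relative that carries thyroid hormone and is also made by astrocytes, had 0.320, 1.13 and 0.0941 CPM in IP, against 3.996, 5.66 and 5.38 CPM in Input (log2 fold change −3.27, SE of 0.77, adjusted p = 0.00664). Both genes lie close together on chromosome 6, Slco1c1 at 141524368 to 141570177 and Slco1a4 at 141805440 to 141856199. Abcb1a, the drug efflux pump P-glycoprotein, had 1 count over the 3 IP libraries, in replicate 3, against 0.588, 0.809 and 1.21 CPM in Input (adjusted p = 0.00235). Its 1 count in IP and 120 in Input gave a level 128-fold lower in IP, with an exact 95% interval of 22.5 to 5097-fold that covers counting error only. Abcb1a shares 22.5% of its 50-base windows, mainly with its near copy Abcb1b. It also overlaps Gm42686 on the other strand over 10.1% of its exon bases.

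Abcg2, the other efflux pump of the barrier, was level between the groups. It had 5.52, 2.66 and 3.27 CPM in IP, against 4.03, 3.25 and 3.41 CPM in Input (log2 fold change 0.10, SE of 0.38, adjusted p = 0.848), and the sign of this value turned with the scaling, to −0.07 with upper-quartile scaling and −0.15 with library totals alone. There were 39.4, 13.6 and 34.8 counts of Abcg2 for each count of Slco1a4 in IP, against 1.14, 0.960 and 1.496 in Input. Slco1a4 had only 7, 9 and 4 counts in IP, so these IP ratios are imprecise.

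Slc2a1, the glucose carrier GLUT1 and the gene with the most CPM among the 43 in every library, had 17.8, 10.5 and 15.5 CPM in IP, against 25.7, 25.5 and 26.8 CPM in Input (log2 fold change −0.84, SE of 0.20, adjusted p = 0.00732). Slc16a1, the carrier of lactate and ketone bodies MCT1, had 5.82, 4.77 and 6.40 CPM in IP, against 13.01, 12.6 and 13.7 CPM in Input (log2 fold change −1.21, SE of 0.20, adjusted p = 0.00120). Both were lower in every IP library, yet each was far above the junction genes there. Mfsd2a, which carries lysophosphatidylcholine with docosahexaenoic acid and restrains vesicle traffic in the barrier, had 3.54, 0.785 and 1.79 CPM in IP, against 5.37, 6.95 and 6.18 CPM in Input (log2 fold change −1.59, SE of 0.51, adjusted p = 0.0272). Mfsd2a lost its call without IP replicate 3 (adjusted p = 0.0654) and without Input replicate 1, 2 or 3 (0.0622, 0.0953 and 0.0756). The ratio of Slc2a1 to Slc16a1 counts was 3.06, 2.19 and 2.42 in IP, against 1.98, 2.03 and 1.95 in Input. Within each IP library these carriers thus stayed closer to their Input ratio than Abcg2 and Slco1a4 did.

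Of the 6 endothelial transcription factors and secreted or membrane proteins, Sox17 and Igfbp7 fell in IP and the other 4 did not pass the test. The group kept 63.1% of its Input sum, and 3 of its 6 genes had IP and Input libraries that overlapped.

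Sox17, a factor of arterial endothelium, had 0.0600, 0.218 and 0.0706 CPM in IP, against 1.02, 0.770 and 0.593 CPM in Input (log2 fold change −2.74, SE of 0.88, adjusted p = 0.0288). Sox18, its relative, had 0.660, 0.436 and 0.0235 CPM in IP, against 1.49, 1.68 and 0.746 CPM in Input (log2 fold change −1.79, SE of 1.008, adjusted p = 0.174). Igfbp7, a secreted binding protein of the vessel wall, had 1.20, 0.872 and 1.20 CPM in IP, against 3.33, 3.93 and 5.03 CPM in Input (log2 fold change −1.91, SE of 0.43, adjusted p = 0.00546). All 3 had IP libraries below every Input library, as did 33.7% of all genes tested. Sox17 lost its call without IP replicate 3 (adjusted p = 0.0515) and without Input replicate 1, 2 or 3 (0.116, 0.102 and 0.0858), and Igfbp7 without Input replicate 3 (0.0518). With the replicate block Sox17 did not pass the test (log2 fold change −2.91, adjusted p = 0.0982). Sox17 overlaps Gm37587 on the other strand over 16.8% of its exon bases, and reads there cannot be assigned with certainty.

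Egfl7, a secreted protein of endothelial cells, had 4.002, 1.87 and 5.62 CPM in IP, against 3.45, 1.87 and 2.81 CPM in Input (log2 fold change 0.50, SE of 0.48, adjusted p = 0.415). Vwf, the clotting factor that endothelium stores, had 1.34, 0.131 and 0.400 CPM in IP, against 0.705, 0.674 and 0.459 CPM in Input (log2 fold change 0.03, SE of 0.92, adjusted p = 0.980). Its sign turned in several alternatives, among them DESeq2, upper-quartile scaling (−0.14), limma-voom (−0.45) and the replicate block (−0.47). Most IP counts of Vwf were in replicate 1, and without that library its log2 fold change was −1.19 (adjusted p = 0.256). Itm2a, a membrane protein found in brain endothelium, had 2.12, 0.327 and 1.27 CPM in IP, against 1.92, 2.77 and 1.38 CPM in Input (log2 fold change −0.71, SE of 0.71, adjusted p = 0.443). For these genes the spread among IP libraries was wider than the difference between the groups. Egfl7 had 13.3, 28.7 and 14.9 counts for each count of Pecam1 in IP, against 2.93, 1.57 and 1.96 in Input. Pecam1 had only 15, 3 and 16 counts in IP, so these IP ratios are imprecise. Egfl7 overlaps Agpat2, Gm20532 and 2 microRNA genes over 12.8% of its exon bases, and without a stated strand setting reads there cannot be assigned with certainty.

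Of the 7 pericyte and basement membrane genes, Rgs5, Abcc9, Notch3, Vtn and Nid1 fell in IP, Pdgfrb rose and Kcnj8 did not pass the test. The group stood at 35.1% of Input, or at 14.9% without Pdgfrb, which was left out after its value was seen.

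Pdgfrb, the receptor through which PDGF recruits pericytes, had 6.66, 6.89 and 7.86 CPM in IP, against 4.07, 3.85 and 2.97 CPM in Input. Every IP library was above every Input library. The means were 7.14 ± 0.636 CPM in IP and 3.63 ± 0.586 CPM in Input (n = 3 each, SD), a 1.97-fold higher level in IP (log2 fold change 0.98, SE of 0.27, adjusted p = 0.0147). The gene lies on chromosome 18 (61045150 to 61085061, mm10), and none of its exon bases overlaps another gene. Its call was lost with library totals alone in place of scaling factors (log2 fold change 0.74, adjusted p = 0.0528) and without Input replicate 3 (0.85, adjusted p = 0.0754). It was also lost without replicate 2 of both groups (1.06, adjusted p = 0.0621) and without replicate 3 of both groups (0.78, adjusted p = 0.120). The log2 fold change was positive in each of these 4 settings, and the call held with the replicate block (0.98, adjusted p = 0.0343).

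Rgs5 and Notch3 fell. Rgs5, a regulator of G-protein signalling and a common pericyte marker, had 1.30, 0.480 and 2.33 CPM in IP, against 12.1, 9.90 and 8.29 CPM in Input (log2 fold change −2.88, SE of 0.50, adjusted p = 0.00147). Notch3, the Notch receptor of mural cells, had 0.120, 0.828 and 0.282 CPM in IP, against 5.37, 6.05 and 4.82 CPM in Input (log2 fold change −3.72, SE of 0.67, adjusted p = 0.00177). Thus there were 5.12, 14.4 and 3.37 counts of Pdgfrb for each count of Rgs5 in IP, against 0.336, 0.389 and 0.358 in Input. For each count of Notch3 there were 55.5, 8.32 and 27.8 in IP, against 0.759, 0.637 and 0.615 in Input. Notch3 had only 6, 38 and 12 counts in IP, so these IP ratios are imprecise.

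Abcc9, the sulfonylurea receptor subunit of the potassium channel of mural cells, had 0.280, 0.523 and 0 CPM in IP, against 2.51, 4.58 and 1.70 CPM in Input (log2 fold change −3.43, SE of 1.06, adjusted p = 0.0243). Kcnj8, the pore subunit of that channel, had 0, 0 and 1.11 CPM in IP, against 0.744, 0.963 and 1.15 CPM in Input (log2 fold change −1.38, SE of 1.54, adjusted p = 0.493). The subunits lie next to each other on chromosome 6, Kcnj8 at 142564837 to 142571614 and Abcc9 at 142587862 to 142702315, and in IP replicate 3 Kcnj8 had 47 counts while Abcc9 had 0. Without IP replicate 3 the log2 fold change of Kcnj8 was −8.43 (adjusted p = 0.00301), against a group then at 0 counts, so that value is no estimate of size. Abcc9 lost its call without Input replicate 1 or 2 (adjusted p 0.0665 and 0.122).

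Vtn, the matrix protein vitronectin that brain pericytes make, had 0.180, 1.20 and 1.27 CPM in IP, against 6.31, 6.39 and 5.65 CPM in Input (log2 fold change −2.79, SE of 0.63, adjusted p = 0.00550). Nid1, the basement membrane linker nidogen, had 0.260, 1.504 and 1.29 CPM in IP, against 3.13, 4.52 and 2.83 CPM in Input (log2 fold change −1.78, SE of 0.65, adjusted p = 0.0484). IP replicate 1 was the lowest library for both. Nid1 lost its call without IP replicate 3 (adjusted p = 0.0555) and without Input replicate 1, 2 or 3 (0.107, 0.182 and 0.0934).

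Of the 5 smooth muscle genes, Myl9 and Des fell in IP and the other 3 did not pass the test, and the group stood at 20.2% of Input. Myl9, a myosin light chain of smooth muscle, had 1.14, 0.218 and 1.13 CPM in IP, against 5.48, 5.26 and 3.94 CPM in Input (log2 fold change −2.56, SE of 0.61, adjusted p = 0.00735). Des, the intermediate filament desmin, had 0 counts in each IP library, against 0.588, 0.289 and 0.287 CPM in Input, and was at least 17.9-fold lower (adjusted p = 0.00564). Desmin rested on 15 counts in each Input library. Acta2, smooth muscle actin, had 0.140, 0.698 and 0 CPM in IP, against 1.14, 2.08 and 1.76 CPM in Input (log2 fold change −2.56, SE of 1.18, adjusted p = 0.102). Mgp, matrix Gla protein, had 0.740, 0 and 0.0235 CPM in IP, against 1.72, 1.12 and 1.78 CPM in Input (log2 fold change −2.57, SE of 1.34, adjusted p = 0.146). In each of these last genes 1 IP library held most of the counts, and the test was passed without it, for Acta2 without replicate 2 (log2 fold change −4.46, adjusted p = 0.0120) and for Mgp without replicate 1 (−6.75, adjusted p = 9.42e-04, with IP then close to 0 counts). With all libraries kept, Acta2 passed with DESeq2 (adjusted p = 0.0417) and with limma-voom (0.0158). Mgp did so with the replicate block (log2 fold change −4.46, adjusted p = 0.0415) and with limma-voom (0.0141). Tagln, the actin-binding protein transgelin, had 0.900, 0.305 and 0.259 CPM in IP, against 0.588, 0.905 and 0.593 CPM in Input (log2 fold change −0.51, SE of 0.80, adjusted p = 0.632). Of its exon bases, 67.9% overlap Gm48529 and Pcsk7 on the other strand, and Pcsk7 was at 5.68 CPM in IP and 8.68 CPM in Input, so its value is uncertain.

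Of the 2 fibroblast genes, Lum fell in IP and Dcn did not pass the test. Lum, the collagen-binding proteoglycan lumican, had 0.120, 0.0218 and 0.0706 CPM in IP, against 0.627, 0.924 and 0.574 CPM in Input (log2 fold change −3.27, SE of 0.92, adjusted p = 0.0160). Dcn, the proteoglycan decorin, had 0.780, 3.86 and 1.91 CPM in IP, against 4.23, 5.58 and 3.81 CPM in Input (log2 fold change −1.06, SE of 0.55, adjusted p = 0.142), and IP replicate 2 was above the lowest Input library. The genes are neighbours on chromosome 10, Dcn at 97479609 to 97518143 and Lum at 97565128 to 97572703. There were 6.5, 177 and 27.0 counts of Dcn for each count of Lum in IP, against 6.75, 6.04 and 6.63 in Input, so that in IP replicate 1 the ratio was within the Input range. Lum had only 6, 1 and 3 counts in IP, so the ratio of 177 rests on 1 count of Lum. Lum lost its call without Input replicate 1, 2 or 3 (adjusted p 0.0555, 0.0867 and 0.0591) and with the replicate block (log2 fold change −3.38, adjusted p = 0.0770), while Dcn passed the test without IP replicate 2 (log2 fold change −1.75, adjusted p = 0.0188).

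**Figure D3:**
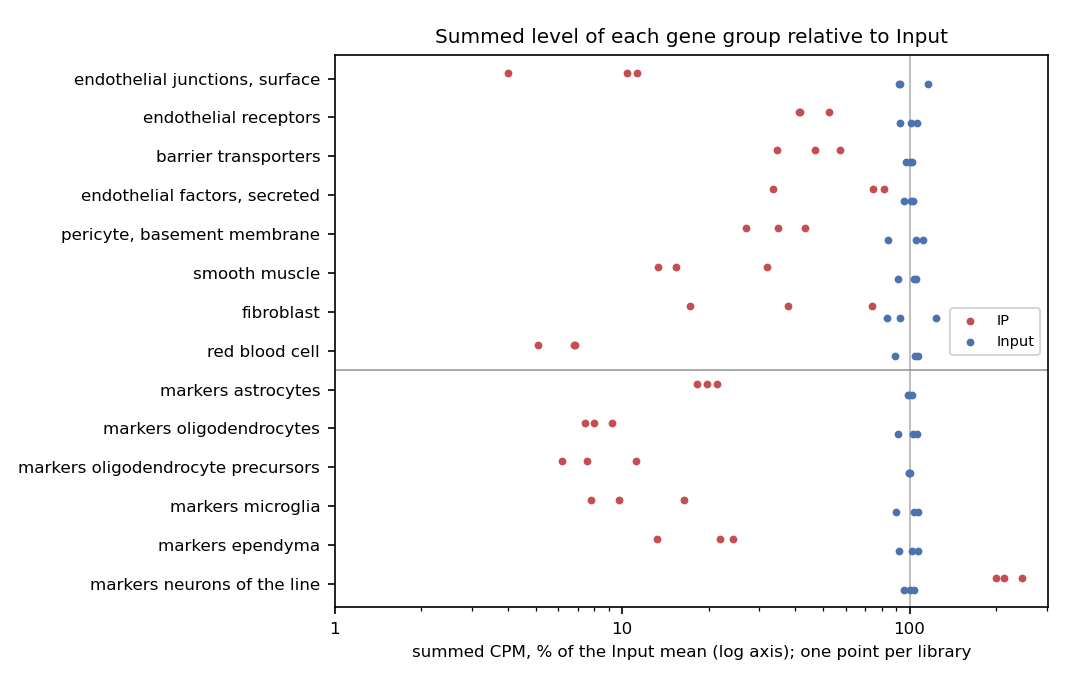
Summed CPM of each role group, and of marker lists of other cell types below the line, as a percentage of the Input mean on a log axis, with a point for each library (IP red and above, Input blue and below). Among the role groups of the 43 genes, junction and red cell genes sit lowest in IP relative to Input, at 8.54% and 6.26%, while the secreted and transcription factor group sits at 63.1%. Marker lists of oligodendrocytes (8.19%) and their precursors (8.30%) sit close to the junction genes.

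All 3 red blood cell genes fell in IP. Their summed level was 0.980, 1.31 and 1.32 CPM in IP replicates 1 to 3, against 20.5, 20.1 and 17.1 CPM in Input, or 6.26% of Input. Globin messages are carried by young red blood cells, and the start regions of adult globin genes are textbook examples of promoters read by erythroid factors. The 250 bases upstream of the RefSeq transcription start (GRCm38.p6, 5′ to 3′ on the gene's strand) are shown for the beta-globin Hbb-bs and the alpha-globin Hba-a2, the genes of the pair of chains that make up haemoglobin and that fell together here. Capitals mark 4 motifs, each searched on both strands. They are the GATA factor letters GATAAG, the Krüppel-like factor letters CACCC, the promoter element CCAAT and the TATA element ATATAAG.
Hbb-bs (chr7:103827929-103828178, minus strand): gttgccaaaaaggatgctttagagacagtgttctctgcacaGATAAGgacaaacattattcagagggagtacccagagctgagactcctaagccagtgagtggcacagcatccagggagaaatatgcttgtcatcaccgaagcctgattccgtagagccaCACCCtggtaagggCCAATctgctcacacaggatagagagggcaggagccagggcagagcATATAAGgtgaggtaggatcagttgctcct
Hba-a2 (chr11:32296242-32296491, plus strand): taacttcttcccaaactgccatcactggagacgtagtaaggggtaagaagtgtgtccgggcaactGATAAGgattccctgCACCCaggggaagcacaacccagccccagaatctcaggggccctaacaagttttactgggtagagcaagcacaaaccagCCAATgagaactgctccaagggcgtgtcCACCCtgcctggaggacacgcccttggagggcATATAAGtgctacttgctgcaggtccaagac

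Counted from the start, the TATA-like letters began at −30 in Hbb-bs and −31 in Hba-a2, and the GATA letters at −209 and −185. The CCAAT element began at −76 in Hbb-bs and at −91 in Hba-a2, and Hba-a2 held CACCC in 2 places. Of 32851 mouse promoters of the same source, 6.55% held GATAAG, 33.9% the CCAAT element, 52.0% the CACCC letters and 2.30% the TATA letters in windows searched the same way, and 13 held all 4. These matches describe the letters only.

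Hbb-bs had 0.7003, 0.741 and 0.565 CPM in IP, against 14.1, 13.8 and 11.7 CPM in Input. The means were 0.669 ± 0.0923 CPM in IP and 13.2 ± 1.32 CPM in Input (n = 3 each, SD), a 19.7-fold lower level in IP (log2 fold change −4.29, SE of 0.27, adjusted p = 5.00e-06). Its IP libraries were close to each other, unlike those of most genes above. Hbb-b2, another beta-globin entry, had 0.180, 0.218 and 0.447 CPM in IP, against 3.33, 3.68 and 3.10 CPM in Input (log2 fold change −3.57, SE of 0.60, adjusted p = 0.00116). Hba-a2 had 0.1001, 0.349 and 0.306 CPM in IP, against 3.09, 2.60 and 2.28 CPM in Input (log2 fold change −3.39, SE of 0.68, adjusted p = 0.00312). All 3 kept their call under every setting. The copies Hba-a1 and Hbb-bt had no entry under those symbols among the genes counted. Of the 50-base windows, 89.3% of those of Hba-a2 and 53.2% of those of Hbb-bs occur in another gene, mainly these copies. Levels of single globin genes are therefore uncertain.

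Replicate IP libraries differed from each other more than Input libraries did. The coefficient of variation of the 43 genes had a median of 70.4% in IP for the 40 genes above 0 there, against 22.4% in Input. Tested genes at the levels of the vessel genes within each group had close medians, 70.2% in IP (0.0476 to 3.83 CPM) and 19.1% in Input (0.698 to 9.09 CPM). The IP levels were lower, so these coefficients do not compare IP with Input at a matched level. Over all genes, IP replicate 1 differed from IP replicates 2 and 3 with a chi-square per degree of freedom of 134 and 93.1, while these differed from each other with 42.1. Pairs of Input replicates differed with 11.8 to 20.8. Replicate 1 had the lowest sum of choroid plexus markers in Input as well as in IP, as given above. Of the 40 vessel genes, the highest IP level was in replicate 1 for 14, in replicate 2 for 13 and in replicate 3 for 13. Without IP replicate 1, 28 of the 43 genes were called lower and 1 higher. A count of 0 occurred in at least 1 IP library for 14 genes and in no Input library for any.

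Per length of merged exon, the Input order was led by Hbb-bs at 17.2 CPM per kilobase, then Slc2a1 at 7.42, Myl9 at 4.21, Hba-a2 at 3.98 and Igfbp7 at 3.39 CPM per kilobase. In IP the order was led by Slc2a1 at 4.16 CPM per kilobase, followed by Pdgfrb at 1.30, Slc16a1 at 1.28, Egfl7 at 1.07 and Mfsd2a at 0.906 CPM per kilobase. Pdgfrb was in place 23 of this order in Input, at 0.663 CPM per kilobase, and Hbb-bs was in place 7 in IP, at 0.871. Lengths came from the GENCODE annotation, which held 42 of the 43 genes, without Hbb-b2.

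**Figure D4:**
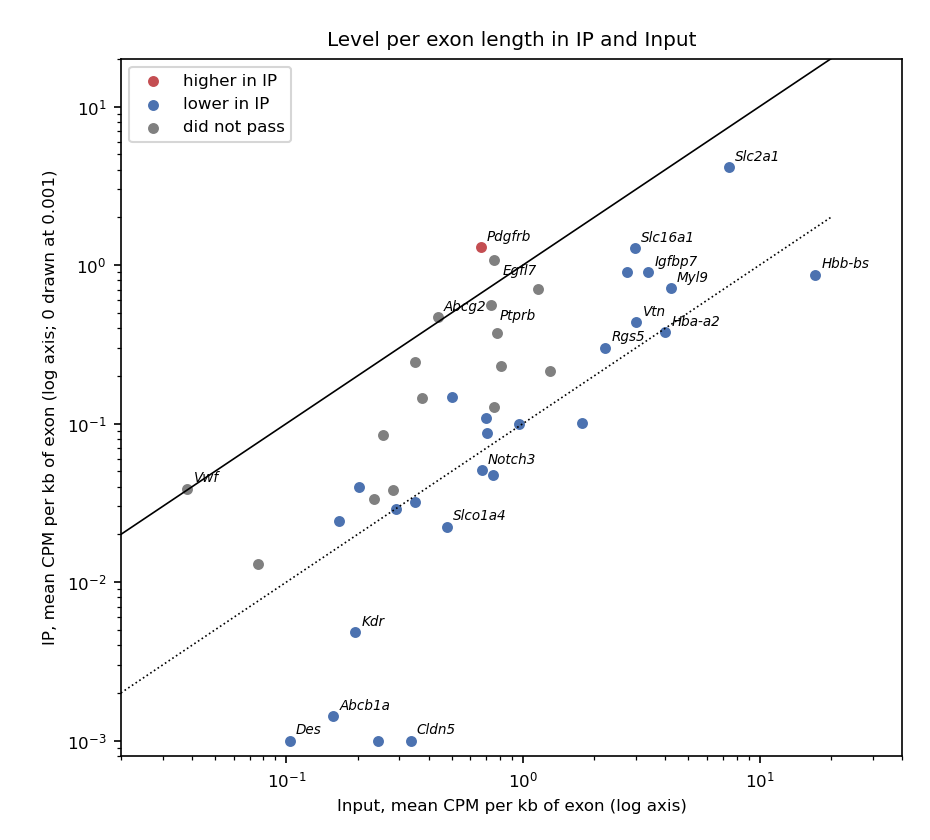
Mean level in IP (vertical axis) against mean level in Input (horizontal axis) for the genes with a known exon length, in CPM per kilobase of exon on log axes; genes at 0 are drawn near the bottom edge. The solid line marks equal levels and the dotted line an IP level at 10% of Input; Pdgfrb and Egfl7 lie above the solid line, Abcg2 and Vwf close to it, and Hbb-bs and Hba-a2 below the dotted one.

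Further genes of the same cell types were listed apart from the 43. Of 48 such genes, 41 were tested, of which 20 were lower in IP, 2 higher and 19 not called, with a median log2 fold change of −2.31. Endothelial genes made up 11 of those lower and 1 of those higher (22 tested), mural genes 6 of those lower (10 tested) and fibroblast genes 3 of those lower and 1 of those higher (8 tested). Over all genes tested, 24.3% were called lower and 23.3% higher. Of the 48 genes, 40 reached the cutoff of the filter on low counts in every Input library and 14 in every IP library. These counts of calls are therefore no independent support for a direction. Tm4sf1, a membrane protein of endothelium, had 0, 0.0872 and 0 CPM in IP, against 4.15, 3.29 and 2.26 CPM in Input (log2 fold change −6.67, SE of 1.10, adjusted p = 0.00107). Aebp1, a fibroblast matrix protein, had 0.0600, 0.196 and 0.0235 CPM in IP, against 2.90, 3.83 and 2.95 CPM in Input (log2 fold change −5.07, SE of 0.80, adjusted p = 8.55e-04). The genes that rose were Aldh1a2, an enzyme that makes retinoic acid and marks meningeal fibroblasts, and Lef1, a transcription factor of the Wnt pathway. Aldh1a2 had 16.8, 19.4 and 23.4 CPM in IP, against 4.39, 4.83 and 5.55 CPM in Input (log2 fold change 2.01, SE of 0.20, adjusted p = 6.57e-05), with no overlap. Lef1 had 117, 97.4 and 113 CPM in IP, against 75.2, 98.6 and 75.5 CPM in Input (log2 fold change 0.39, SE of 0.13, adjusted p = 0.0318). Lef1 overlapped between the groups and lost its call with upper-quartile scaling (adjusted p = 0.204), with library totals alone (0.361), without IP replicate 1 or 3 (0.0508 and 0.0677) and without Input replicate 1 or 3 (0.122 and 0.129).

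The ligands and partners of the receptors above gave 24 tested genes of 26, of which 9 were lower in IP, 3 higher and 12 not called, with a median log2 fold change of −1.22. The background was 24.3% of all genes tested called lower and 23.3% higher. In every Input library 24 of the 26 genes reached the cutoff of the filter on low counts, and in every IP library 15 did. The calls are thus no independent support for a direction. Wnt7b, a Wnt ligand that brain endothelium needs, had 0.0600, 0 and 0.329 CPM in IP, against 5.29, 3.64 and 4.29 CPM in Input (log2 fold change −5.08, SE of 1.0, adjusted p = 0.00284). Bmp4, a BMP ligand, had 0.0200, 0.458 and 0.0471 CPM in IP, against 3.37, 2.33 and 2.16 CPM in Input (log2 fold change −3.88, SE of 1.04, adjusted p = 0.0125), and lost its call without Input replicate 1 (adjusted p = 0.0561). Both ligands were close to 0 in IP. Among the genes that rose, Bsg, the chaperone of the Slc16a1 carrier, had 166, 204 and 199 CPM in IP, against 135, 128 and 146 CPM in Input (log2 fold change 0.48, SE of 0.10, adjusted p = 0.00447). Ndp, which encodes the Fzd4 ligand norrin, had 14.1, 7.11 and 7.77 CPM in IP, against 4.35, 4.18 and 5.68 CPM in Input (log2 fold change 1.03, SE of 0.31, adjusted p = 0.0231). Tgfb2, a ligand of the TGF-beta receptors, had 59.6, 24.8 and 37.4 CPM in IP, against 15.9, 23.5 and 21.9 CPM in Input (log2 fold change 0.99, SE of 0.29, adjusted p = 0.0197). All 3 genes that rose had every IP library above every Input library. Ndp lost its call with upper-quartile scaling (adjusted p = 0.0520), with library totals alone (0.0634), without IP replicate 1 (0.0547) and without Input replicate 1 or 2 (0.0817 and 0.0863), and Tgfb2 with library totals alone (0.0555) and without Input replicate 1 (0.0816). Vegfa, the ligand of Kdr and Flt1 and, like Bsg, chosen after its value was seen, had 38.1, 25.9 and 28.3 CPM in IP, against 70.2, 64.7 and 62.8 CPM in Input (log2 fold change −1.10, SE of 0.15, adjusted p = 4.23e-04).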

How the data were processed

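The authors deposited unnormalized read counts for each gene in 3 IP and 3 Input libraries. The submitters' processing notes name STAR 2.0.0e, HTSeq and the build mm10. Annotation and strand setting are not given in the sources used here, and antisense and overlapping genes could not be told apart. Lines tied to no gene entered neither library sizes nor tests. Reads not uniquely aligned were 43.2 to 49.7% of all lines in IP and 32.7 to 34.0% in Input, reads in no feature 8.44 to 9.39% in IP and 14.8 to 15.9% in Input, and ambiguous reads 1.32 to 1.58% in IP and 5.47 to 6.60% in Input.

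All genes were fitted in R 4.3.3 with edgeR 4.0.16 (robust quasi-likelihood test, two-sided, TMM scaling, filterByExpr with a minimum count of 10, Benjamini-Hochberg over all tested genes, threshold 0.05), and the code was tested on simulated data. CPM are TMM-scaled, standard errors (SE) were derived from the F statistic, and 0 counts were bounded with 3 counts over the group. These bounds were set against the Input mean and leave out the spread of Input. Alternatives used DESeq2 1.42.0, limma 3.58.1, other scalings and filters, a replicate block, and libraries left out in turn. Intervals cover counting error only. Per the labels, the IP and Input library of each replicate number carry the same lane tag, so the numbers mark a shared batch and values with the replicate number as a block are given where they change a call. Deviations of same-numbered libraries from their group means correlated weakly (0.0636, 0.0386 and 0.0124). Replicates of a group differed by more than sampling noise. Exon lengths and positions came from GENCODE M21 (GRCm38), promoters from RefSeq, which held 28 of the 43 genes. The 43 genes, the other lists and the rules were chosen with earlier results of these data known. Of the other lists, the 2 called genes with the largest and the 2 with the smallest change at a mean of at least 1 CPM were named. Ratios between genes were chosen after values were seen.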

Additional observations from a re-analysis of the deposited data

How the results depend on the processing

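No direction reversed among the results that passed the test and were followed through the alternatives. The single genes followed were the 43, Cbln1, Tm4sf1, Aebp1, Lef1, Aldh1a2, Wnt7b, Bmp4, Tgfb2 and Ndp. Bsg, Vegfa, Vps25 and marker genes outside these were not checked in this way. Of the 27 genes called lower, 15 kept that call in every alternative that tested them (Cldn5, Cdh5, Kdr, Slco1a4, Slco1c1, Abcb1a, Slc16a1, Rgs5, Notch3, Vtn, Myl9, Des, Hbb-bs, Hbb-b2 and Hba-a2), and 12 lost it in at least 1. Of the 15, Cldn5, Cdh5, Abcb1a and Des were removed by the filter with a minimum count of 50 and so were not tested there. Among the genes that did not pass the test, 9 passed in at least 1 alternative and 6 in none. With all libraries kept, Flt1, Eng and Acta2 passed with DESeq2. Flt1, Tek, Eng, Kcnj8, Acta2, Mgp and Dcn passed with limma-voom. The 43 genes gave 30 called lower with DESeq2, 34 with limma-voom, 27 with upper-quartile scaling and 27 with library totals alone, 25 with no filter, and 20 of 30 tested with a minimum count of 50. With the replicate block 26 were lower and 1 higher: Pecam1, Sox17 and Lum lost their call, Flt1 and Mgp gained one, and no other of the 43 genes changed its call. The count of genes called higher, Pdgfrb, was 0 with library totals alone and 0 to 1 with libraries left out. Slc2a1 lost its call without replicate 3 of both groups (adjusted p = 0.0645). Library totals alone also took the genes called higher among all tested to 2458, against 3930. The median log2 fold change of the 43 genes was −2.86 with upper-quartile scaling, −2.91 with library totals alone, −3.09 with limma-voom and −3.09 with the replicate block, and −2.75 to −2.44 with libraries left out. For all tested genes it was −0.11 with DESeq2, −0.25 with upper-quartile scaling, −0.31 with library totals alone, −0.35 with no filter, 0.00 with the stricter filter, −0.12 with limma-voom, −0.12 with the replicate block and −0.127 to −0.0641 with libraries left out. The cause of these shifts was not tested. Counts per gene limit the precision: genes with under 1 CPM in Input rest on few reads.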
